A study of Mus musculus with 6 samples.

Results

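The 29 genes described here encode the machinery of cholesterol synthesis, uptake, storage and efflux. They were listed by name for their roles, out of 22942 genes in the tables, with earlier results of these data known. They comprise 18 enzymes of the synthesis route, 4 proteins that control the transcription factor SREBP2, 4 proteins of uptake and transport inside the cell, the esterifying enzyme Soat1 and the efflux pumps Abca1 and Abcg1. The levels of 28 of them could be compared, and Hmgcs1 was listed at 0 in all 6 libraries.

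The series asked which genes depend on the histone demethylase LSD1 while brown fat cells form in culture. The cells were C3H-10T1/2, mouse mesenchymal cells able to become adipocytes, and their messenger RNA was sequenced on day 6 of differentiation. There were 3 libraries from cultures given the LSD1 inhibitor 611 (Cpd A) at 4 uM and 3 from cultures given the solvent DMSO. Both groups went through the same induction, 72 h in medium with 10% serum. That medium held rosiglitazone at 1 uM, T3 at 1 nM and insulin at 20 nM, all kept in the later medium. It also held dexamethasone at 1 uM, indomethacin at 125 uM and isobutylmethylxanthine at 0.5 mM, for those 72 h alone. The labels differ on when 611 or DMSO was first added, at seeding in one place and 12 h after it in another, and induction followed 48 h later. All values come from 1 established line and 1 inhibitor.

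Cells make cholesterol from acetyl units by a chain of soluble and membrane enzymes that runs through mevalonate, farnesyl diphosphate, squalene and lanosterol. The transcription factor SREBP2 turns the genes of that chain on when sterol in the endoplasmic reticulum runs low, and INSIG proteins hold it and its escort SCAP there when sterol is plentiful. Surplus cholesterol is stored as esters or pumped out by ABC transporters, whose genes respond to the sterol-sensing LXR receptors. Fat cells store much of their cholesterol unesterified in the membrane around the lipid droplet, and they also take it up from lipoproteins.

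Library totals, recovered approximately from the values of single reads, were 4.08e+07, 4.12e+07 and 4.09e+07 for 611 replicates 1 to 3, against 3.89e+07, 3.97e+07 and 3.99e+07 for DMSO replicates 1 to 3. The detected genes of the cholesterol set had at least 933 reads in every library. The general fat cell markers summed to between 12874 and 14227 RPKM (reads per kilobase, scaled to library size) with 611. With DMSO they summed to between 24837 and 26254 RPKM, and 8 of 8 were lower with 611. Most of each sum was Fabp4, with means of 10946 RPKM with 611 and 21052 RPKM with DMSO. The 8 log2 fold changes ran from -1.15 for Cd36 to -0.23 for Cebpa. The brown fat markers summed to between 83.5 and 102 RPKM with 611 and between 224 and 268 RPKM with DMSO, and 5 of the 6 tested were lower. Ucp1, which defines heat-producing brown fat cells, was listed at 0 throughout. As for Hmgcs1, an absent transcript and a missing estimate cannot be told apart there. Mesenchymal progenitor markers summed to between 238 and 253 RPKM with 611, against 72.1 to 81.1 RPKM with DMSO, and 6 of 6 were higher. By the same test, described below, 41.6% of all genes tested were higher and 17.7% lower. Macrophage markers summed to between 0.0443 and 0.0947 RPKM with 611 and between 0.0390 and 0.0737 RPKM with DMSO, with Ptprc and Itgam listed at 0, and the 4 skeletal muscle markers were listed at 0. Endothelial markers summed to between 0.279 and 0.323 RPKM with 611 and between 0.0875 and 0.232 RPKM with DMSO, with Cdh5 and Kdr listed at 0 and Tek, the only one tested, higher. Liver and steroid gland markers summed to between 0.934 and 1.18 RPKM with 611 and between 1.29 and 1.62 RPKM with DMSO, with Ttr listed at 0 and Star, the only one tested, lower. Every difference below was measured in these same libraries, and the part of the fat cell and progenitor shifts in it was not tested. In such bulk cultures, fewer cells of a type and less RNA per cell cannot be told apart.

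The cholesterol genes moved in both directions and by modest amounts. The largest rises with 611 were those of Srebf2 (1.62-fold), the gene of the master regulator, and Soat1 (1.56-fold), which esterifies cholesterol. The largest falls were those of Pmvk (1.67-fold), a mevalonate pathway kinase, Insig1, whose ratio to DMSO was 0.668, and the lipoprotein receptor gene Scarb1 (1.46-fold). Of the 28 tested, 8 rose and 10 fell with 611, and 10 were not called (limma on log2(RPKM + 1), Benjamini-Hochberg, BH, adjusted p below 0.05). Those called made up 64.3% of the tested members, against 59.4% of all 13829 genes tested. Higher calls made up 28.6% of the members and 41.6% of all genes, and lower calls 35.7% of the members and 17.7% of all genes. The median log2 fold change was -0.06 over the members and 0.10 over all genes. No member moved by 1 or more on the log2 scale, as 586 of all genes, 4.24%, did. The median absolute log2 fold change was 0.23 over the members and 0.21 over all genes.

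Over all genes, scaling the libraries by the median of ratios shifted the median difference by 0.11 on the log2 scale, to -0.00. On that scale 6 members were higher and 15 lower, against 28.5% higher and 28.6% lower over all genes. The 6 higher were Mvk, Sqle, Ebp, Srebf2, Stard4 and Soat1, all among the 8 of the unscaled fit; the 10 lower of the unscaled fit were all lower again. The scaled median was -0.21 over the members. A fit that kept replicate numbers as a block called 10 members higher and 13 lower, against 44.6% higher and 19.5% lower over all genes. Without scaling, all 3 libraries with 611 lay above all 3 with DMSO for 9 members, against 45.8% of all genes, and below them for 13, against 20.4% of all genes. The groups overlapped for the other 6. For 27 of the 28 members the 3 numbered pairs of libraries differed in 1 direction, against 78.1% of all genes. Every tested member had a mean of at least 4.18 RPKM in each group. All genes tested reach down to 0.1 RPKM in 3 libraries, and neither these shares nor those of the calls were matched for level.

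**Figure D1:**
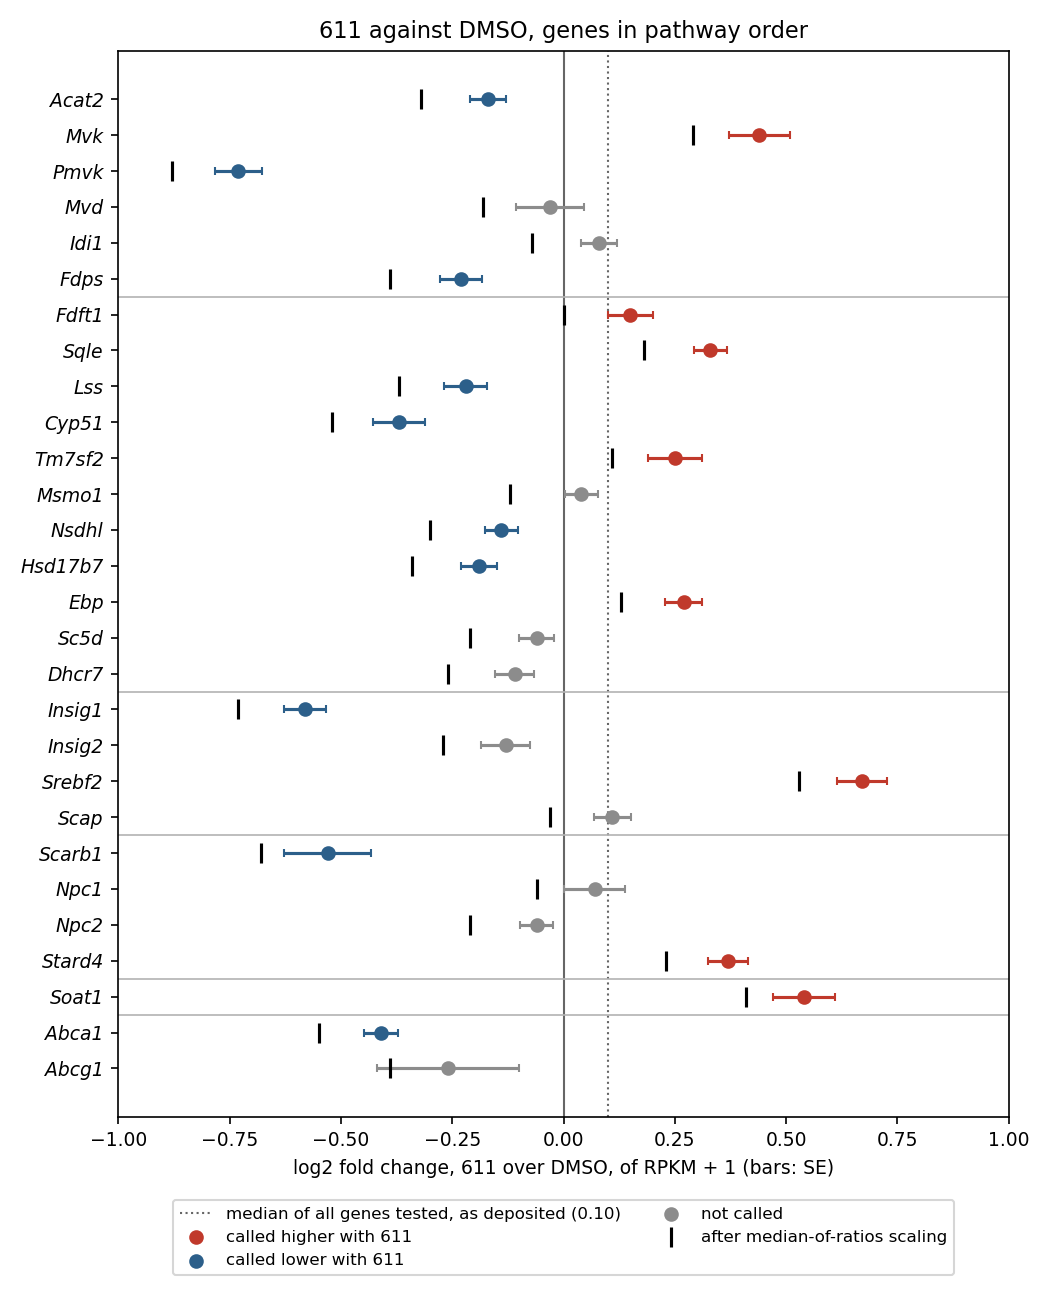
Log2 fold change, 611 over DMSO, of each of the 28 detected cholesterol genes in pathway order, on the log2(RPKM + 1) scale, with its standard error (bars) and its value after median-of-ratios scaling (black ticks). Red points are called higher with 611, blue points lower and grey points neither. The points run from -0.73 for Pmvk to 0.67 for Srebf2. The ticks lie left of the points because the scaling lowers the 611 libraries and raises the DMSO libraries.

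Among the genes that control SREBP2, the gene of the factor itself and the gene of its main retention protein differed in opposite directions. Srebf2, which encodes SREBP2, had 46.2, 48.9 and 44.4 RPKM in the 611 libraries and 27.6, 31.0 and 27.7 RPKM in the DMSO libraries. The lowest 611 library lay well above the highest DMSO library. The mean was 46.5 ± 2.27 RPKM with 611 and 28.8 ± 1.93 RPKM with DMSO (SD, n = 3 each), 1.62-fold higher (log2 fold change 0.67, SE 0.056, limma BH-adjusted p = 1.33e-05). After scaling the log2 fold change was 0.53 (limma BH-adjusted p = 4.53e-05).

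Insig1, the sterol-responsive retention protein that is also abundant in fat cells, had the highest level of all the members in both groups. It stood at 372, 358 and 336 RPKM with 611 and at 524, 539.5 and 532 RPKM with DMSO. The groups were far apart, with every 611 library below every DMSO library. Its means were 356 ± 18.1 RPKM with 611 and 532 ± 7.60 RPKM with DMSO, a ratio of 0.668 (log2 fold change -0.58, SE 0.047, limma BH-adjusted p = 1.2e-05). Insig2, the related protein that responds less to sterol, had 14.8, 15.5 and 15.2 RPKM with 611 and 16.4, 18.0 and 15.6 RPKM with DMSO. The 611 libraries lay just below the DMSO libraries, and the difference was not called (log2 fold change -0.13, SE 0.055, limma BH-adjusted p = 0.0754). Insig2 was called lower with the replicate block (limma BH-adjusted p = 0.0345) and after scaling (limma BH-adjusted p = 0.00192). The same call came without DMSO replicate 3 (log2 fold change -0.17, limma BH-adjusted p = 0.034). Summing its transcripts (log2 fold change -0.17, limma BH-adjusted p = 0.0106) and quantile normalization (log2 fold change -0.24, limma BH-adjusted p = 0.00401) also brought it. So did the block with length, GC and expression trends removed (limma BH-adjusted p = 0.00209). Scap, the sterol-sensing escort of SREBP2, had 11.4, 11.9 and 11.5 RPKM with 611 and 10.8, 10.6 and 10.7 RPKM with DMSO. These small differences were not called (log2 fold change 0.11, SE 0.042, limma BH-adjusted p = 0.0572). Scap was called higher with the replicate block (limma BH-adjusted p = 0.0453), and after scaling its log2 fold change was -0.03. Summed transcripts (limma BH-adjusted p = 0.0331) and no filter (limma BH-adjusted p = 0.0411) also gave a higher call, while quantile normalization put Scap at -0.04. Scap shares 985 exonic bases with 5830462I19Rik on the opposite strand. The 4 genes summed to 445, 434 and 408 RPKM with 611 and 579, 599 and 586 RPKM with DMSO, mostly Insig1.

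The bases in front of the start sites are shown for genes of this system that moved in opposite directions, Srebf2 and Mvk, which rose, and Insig1 and Cyp51, which fell. SREBP proteins bind sterol response elements and act together with the factors NF-Y and Sp1 at neighbouring sites. Capitals mark CCAAT, the NF-Y motif, and GGGCGG, the Sp1 motif, read on either strand, so that ATTGG and CCGCCC are their reverse forms. Each sequence covers the 250 bases before the start, 5′ to 3′ on the gene's strand, from RefSeq on build GRCm38.p6: Srebf2 at chr15:82147019-82147268 (+), Mvk at chr5:114444019-114444268 (+), Insig1 at chr5:28071162-28071411 (+) and Cyp51 at chr5:4104698-4104947 (-).
Srebf2: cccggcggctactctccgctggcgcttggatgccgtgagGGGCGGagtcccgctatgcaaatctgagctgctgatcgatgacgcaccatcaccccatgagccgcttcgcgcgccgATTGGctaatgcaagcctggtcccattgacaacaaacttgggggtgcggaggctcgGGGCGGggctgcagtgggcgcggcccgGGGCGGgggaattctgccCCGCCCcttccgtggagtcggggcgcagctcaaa
Mvk: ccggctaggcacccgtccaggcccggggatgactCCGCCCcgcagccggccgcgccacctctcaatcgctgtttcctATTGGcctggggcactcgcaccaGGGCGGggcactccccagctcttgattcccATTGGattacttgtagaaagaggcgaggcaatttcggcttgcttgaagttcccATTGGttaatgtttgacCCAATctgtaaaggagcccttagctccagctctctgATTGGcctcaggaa
Insig1: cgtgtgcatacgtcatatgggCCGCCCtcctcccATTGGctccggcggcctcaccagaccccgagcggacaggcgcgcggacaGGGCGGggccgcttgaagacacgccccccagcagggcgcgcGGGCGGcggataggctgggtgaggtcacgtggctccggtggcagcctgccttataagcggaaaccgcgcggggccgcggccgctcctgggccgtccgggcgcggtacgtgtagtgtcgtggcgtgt
Cyp51: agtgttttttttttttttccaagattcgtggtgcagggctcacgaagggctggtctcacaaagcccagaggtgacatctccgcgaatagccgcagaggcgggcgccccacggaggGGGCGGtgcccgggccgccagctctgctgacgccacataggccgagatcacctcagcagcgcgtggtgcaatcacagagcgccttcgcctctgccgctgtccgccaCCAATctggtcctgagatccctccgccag
Srebf2 holds 1 CCAAT and 4 GGGCGG matches, Mvk 5 and 2, Insig1 1 and 3, and Cyp51 1 and 1. Not every called member holds both: the windows of Soat1, which rose, and Pmvk, which fell, have no GGGCGG, and those of Acat2 and Abca1, which fell, have no CCAAT.

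The table gave 28 such windows for 22 of the members, and Abcg1, Npc1, Sqle, Stard4, Fdft1, Fdps and Scarb1 had none. CCAAT was in 19 of the 28 windows, 67.9%, against 35.8% of the 13323 windows of genes tested and 33.8% of all 32851 windows. GGGCGG was in 22, 78.6%, against 56.3% of the windows of genes tested and 32.7% of all windows. The 9-letter form of the sterol response element TCACNCCAC was in 1 member window, that of Hmgcs1. This was 3.57% of the member windows, against 0.991% of the windows of genes tested and 1.05% of all windows. Other forms of the element were not searched, so a window without this match can still hold the element. The exact direct repeat of AGGTCA with 4 bases between the repeats, a form bound by LXR, was in none of the member windows. It was also in 0 of the 13323 windows of genes tested, and in 0.0152% of all windows. A form this rare cannot tell whether members hold LXR sites, and looser forms were not searched. Matches of CCAAT and GGGCGG can share letters at their ends, and a match is a run of letters, not a measured binding site. In Hmgcs1 the match spans bases 137 to 129 before the listed start. The bases just after that start were not found in annotated Hmgcs1 transcripts, unlike those of the windows shown above, so the distance is uncertain. The match is in capitals within chr13:119690194-119690242 (+, GRCm38.p6).
Hmgcs1: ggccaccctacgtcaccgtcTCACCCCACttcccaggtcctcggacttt

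Hmgcs1, HMG-CoA synthase, which joins acetyl-CoA to acetoacetyl-CoA on the way to mevalonate, is the member whose level could not be read. It was listed at 0 in all 6 libraries, where 3 reads would have given between 0.021 and 0.0223 RPKM. Acat2, the step before it, had at least 209 RPKM in every library. The value of 0 is given as listed, no level is drawn from it, and Hmgcs1 entered no test.

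The enzymes that lead to farnesyl diphosphate differed from step to step. Of the 6 tested, 1 rose, 3 fell and 2 were not called, and the same 1 and 3 were called after scaling. The unscaled shares were 16.7% higher and 50% lower, against 41.6% and 17.7% of all genes. Acat2, the cytosolic thiolase of the first condensation, had 223, 209 and 210.2 RPKM with 611 and 241, 236 and 247 RPKM with DMSO. All 611 libraries lay below the DMSO libraries, by a small margin (1.13-fold lower, log2 fold change -0.17, SE 0.041, limma BH-adjusted p = 0.00613). With quantile normalization the call was lost (log2 fold change -0.04, limma BH-adjusted p = 0.471).

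Mevalonate then passes through a pair of kinases and a decarboxylase. Mvk, mevalonate kinase, had 28.6, 29.0 and 24.9 RPKM with 611 and 20.4, 21.2 and 18.5 RPKM with DMSO. In both groups replicate 3 was the lowest, and no library of one group reached the other group. The means were 27.5 ± 2.26 RPKM with 611 and 20.1 ± 1.36 RPKM with DMSO, 1.37-fold higher (log2 fold change 0.44, SE 0.068, limma BH-adjusted p = 0.000599). Pmvk, phosphomevalonate kinase, which acts next, differed the other way, with 96.4, 96.8 and 85.2 RPKM in the 611 libraries and 151, 156 and 157 RPKM in the DMSO libraries. Its groups were the farthest apart among the members on the log2 scale. The means were 92.8 ± 6.57 RPKM with 611 and 155 ± 3.20 RPKM with DMSO, 1.67-fold lower (log2 fold change -0.73, SE 0.053, limma BH-adjusted p = 6.16e-06). Mvd, the decarboxylase that yields isopentenyl diphosphate, had 32.6, 32.1 and 27.3 RPKM with 611 and 33.0, 32.4 and 28.7 RPKM with DMSO. Its groups overlapped, and each 611 library lay just below the DMSO library of its number (log2 fold change -0.03, SE 0.076, limma BH-adjusted p = 0.729). The sign of that value turned without 611 replicate 3 (0.05) and without DMSO replicate 1 (0.00). Mvd was called lower with the replicate block and scaling (log2 fold change -0.18, limma BH-adjusted p = 0.00191) and with the block and trends removed (log2 fold change -0.08, limma BH-adjusted p = 0.0472), but not with the block alone (limma BH-adjusted p = 0.35).

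Idi1, which interconverts the isoprene units, had 147, 143 and 149 RPKM with 611 and 139, 133 and 144 RPKM with DMSO. The groups overlapped, although each 611 library was above its numbered DMSO library (log2 fold change 0.08, SE 0.04, limma BH-adjusted p = 0.132). With the replicate block the limma BH-adjusted p was 0.0391, and after scaling the log2 fold change was -0.07. Quantile normalization brought a higher call (log2 fold change 0.20, limma BH-adjusted p = 0.00255). Idi1 shares 323 exonic bases with Gm48574 on the opposite strand. Fdps, farnesyl diphosphate synthase, where the sterol route parts from the prenyl routes, had 203, 207 and 186 RPKM with 611 and 232, 239 and 229 RPKM with DMSO. Every 611 library lay below every DMSO library (1.18-fold lower, log2 fold change -0.23, SE 0.048, limma BH-adjusted p = 0.00273). The call was lost with quantile normalization (log2 fold change -0.10, limma BH-adjusted p = 0.0681). The annotated gene Gm43738 shares 1124 exonic bases with Fdps on the same strand, so the reads of that pair cannot be told apart. Summed over the 6 detected genes, these steps gave 732, 716 and 682 RPKM with 611 and 817, 818 and 824 RPKM with DMSO, a ratio of 0.866.

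**Figure D2:**
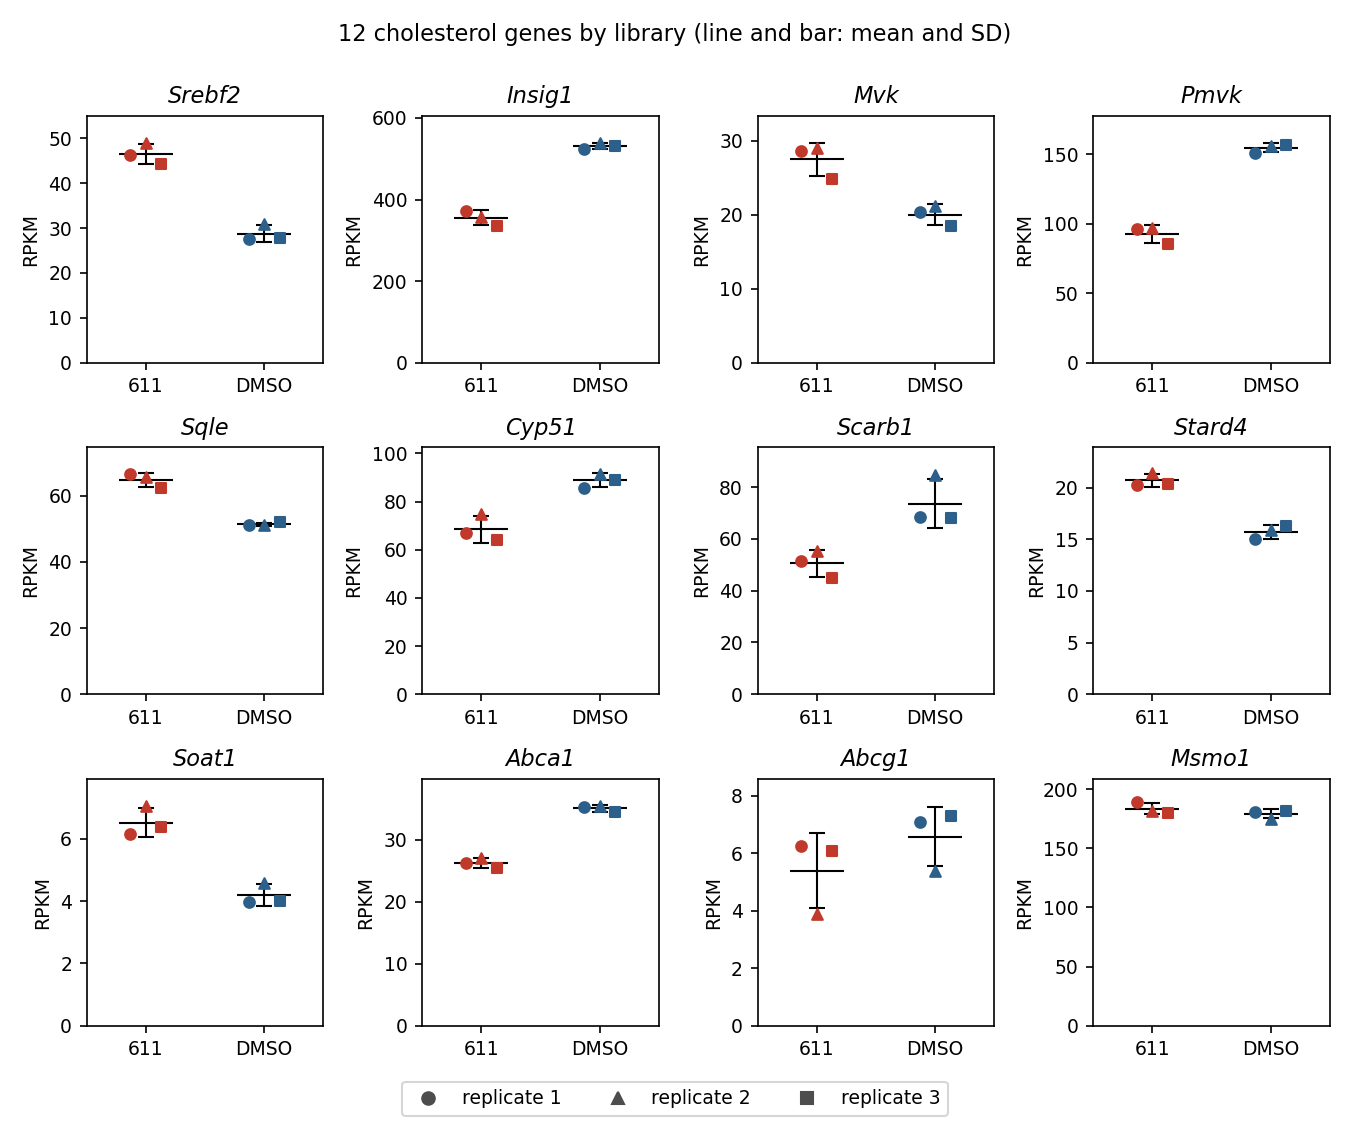
Level in RPKM (vertical axes from 0) of 12 cholesterol genes in each library, 611 left and DMSO right in each panel; marker shapes give the replicate number, and the line and bar give the mean and SD of 3 libraries. Srebf2, Mvk, Sqle, Stard4 and Soat1 lie higher with 611; Insig1, Pmvk, Cyp51, Scarb1 and Abca1 lie lower; Abcg1 and Msmo1 overlap.

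From squalene onward, 4 of 11 enzymes rose, 4 fell and 3 were not called in the unscaled fit. These were 36.4% higher and 36.4% lower, against 41.6% higher and 17.7% lower over all genes. After scaling 2 were higher and 7 lower, against 28.5% higher and 28.6% lower over all genes. Fdft1, squalene synthase, which commits carbon to sterols, had 56.1, 52.1 and 49.8 RPKM with 611 and 47.8, 49.0 and 45.3 RPKM with DMSO. The groups did not overlap, but the lowest 611 library was close to the highest DMSO library. Its rise (1.11-fold, log2 fold change 0.15, SE 0.051, limma BH-adjusted p = 0.0333) was absent after scaling (log2 fold change -0.00, limma BH-adjusted p = 0.999). The call was also lost without 611 replicate 1 (limma BH-adjusted p = 0.1), without 611 replicate 2 (limma BH-adjusted p = 0.0613), without DMSO replicate 1 (limma BH-adjusted p = 0.066) and without DMSO replicate 3 (limma BH-adjusted p = 0.112). Fdft1 shares 774 exonic bases with Ctsb on the opposite strand, and it is not known whether the values used strand.

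Sqle, squalene epoxidase, a rate-controlling enzyme of the later route, had 66.5, 65.6 and 62.4 RPKM with 611 and 51.1, 51.2 and 51.9 RPKM with DMSO. The DMSO libraries were almost equal, and all 611 libraries lay above them. Means of 64.8 ± 2.18 RPKM with 611 and 51.4 ± 0.448 RPKM with DMSO gave a 1.26-fold rise (log2 fold change 0.33, SE 0.037, limma BH-adjusted p = 7.82e-05). Lss, the cyclase that makes lanosterol, had 78.6, 77.6 and 70.7 RPKM with 611 and 86.2, 91.2 and 86.8 RPKM with DMSO. It fell 1.16-fold, with no overlap (log2 fold change -0.22, SE 0.048, limma BH-adjusted p = 0.00396). Lss shares 381 exonic bases with an antisense transcript, 4930483K19Rik, from which unstranded values could not be told apart.

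Lanosterol is then stripped of methyl groups. Cyp51, the cytochrome P450 that removes the first of them, had 66.9, 74.7 and 63.9 RPKM with 611 and 85.7, 91.5 and 89.1 RPKM with DMSO. Replicate 2 was the highest in both groups, and the groups lay apart. Cyp51 fell 1.30-fold, with means of 68.5 ± 5.57 RPKM for 611 and 88.7 ± 2.89 RPKM for DMSO (log2 fold change -0.37, SE 0.058, limma BH-adjusted p = 0.000556). It shares 166 exonic bases with Akap9 on the opposite strand. Tm7sf2, the reductase that acts on the product of Cyp51, had 25.5, 28.5 and 24.1 RPKM with 611 and 21.0, 22.3 and 21.6 RPKM with DMSO. It rose 1.20-fold (log2 fold change 0.25, SE 0.06, limma BH-adjusted p = 0.00579), a call that scaling ended (log2 fold change 0.11, limma BH-adjusted p = 0.148). Tm7sf2 shares 532 exonic bases with Vps51 on the same strand, so these reads cannot be told apart.

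The remaining methyl groups are removed by a complex of Msmo1, Nsdhl and Hsd17b7. Msmo1, the oxidase, had 189, 182 and 179.6 RPKM with 611 and 181, 175 and 182 RPKM with DMSO. It was the 1 member whose numbered pairs differed in direction, and the groups overlapped (log2 fold change 0.04, SE 0.037, limma BH-adjusted p = 0.439). After scaling Msmo1 was called lower (log2 fold change -0.12, limma BH-adjusted p = 0.0478), and with quantile normalization higher (log2 fold change 0.18, limma BH-adjusted p = 0.00167). Nsdhl, the decarboxylating dehydrogenase, had 92.1, 88.3 and 85.6 RPKM with 611 and 98.4, 97.7 and 98.2 RPKM with DMSO. Its DMSO libraries were nearly identical and all higher, a 1.11-fold fall with 611 (log2 fold change -0.14, SE 0.037, limma BH-adjusted p = 0.0088). Hsd17b7, the ketoreductase of the complex, had 31.5, 31.4 and 29.3 RPKM with 611 and 34.7, 35.8 and 35.2 RPKM with DMSO. It fell 1.15-fold without overlap (log2 fold change -0.19, SE 0.041, limma BH-adjusted p = 0.0034).

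The last steps rearrange double bonds. Ebp, the sterol isomerase, had 33.7, 32.8 and 31.5 RPKM with 611 and 25.9, 27.7 and 26.9 RPKM with DMSO. All 611 libraries were higher, 1.22-fold on average (log2 fold change 0.27, SE 0.042, limma BH-adjusted p = 0.000533). Sc5d, the desaturase that follows, had 28.8, 28.1 and 29.3 RPKM with 611 and 29.4, 29.7 and 31.2 RPKM with DMSO. The groups touched without overlapping, and the difference was called only after scaling of the libraries or with quantile normalization or trend removal (log2 fold change -0.06 unscaled, SE 0.039, limma BH-adjusted p = 0.179). Dhcr7, the reductase that yields cholesterol, had 89.5, 83.5 and 82.0 RPKM with 611 and 92.8, 93.8 and 89.0 RPKM with DMSO. The highest 611 library lay above the lowest DMSO library, and the difference just missed the threshold (log2 fold change -0.11, SE 0.043, limma BH-adjusted p = 0.0514). It was called lower with the replicate block (limma BH-adjusted p = 0.0162), after scaling (limma BH-adjusted p = 0.00152), without 611 replicate 1 (log2 fold change -0.15, limma BH-adjusted p = 0.0147) and without DMSO replicate 3 (log2 fold change -0.13, limma BH-adjusted p = 0.0484).

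The ring steps together summed to 758, 745 and 708 RPKM with 611 and 754, 765 and 757 RPKM with DMSO, a ratio of 0.972. Over the detected synthesis enzymes the sums were 1489.8, 1461 and 1390.0 RPKM with 611 and 1570.3, 1583 and 1581 RPKM with DMSO. Of the 18 synthesis enzymes, Hmgcs1 was not covered by these sums, as its level could not be read. The 611 sums averaged 1447 ± 51.4 RPKM and the DMSO sums 1578 ± 6.77 RPKM, a ratio of 0.917, with every 611 sum below every DMSO sum. Replicate 3 was the lowest 611 library in each of these sums.

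**Figure D3:**
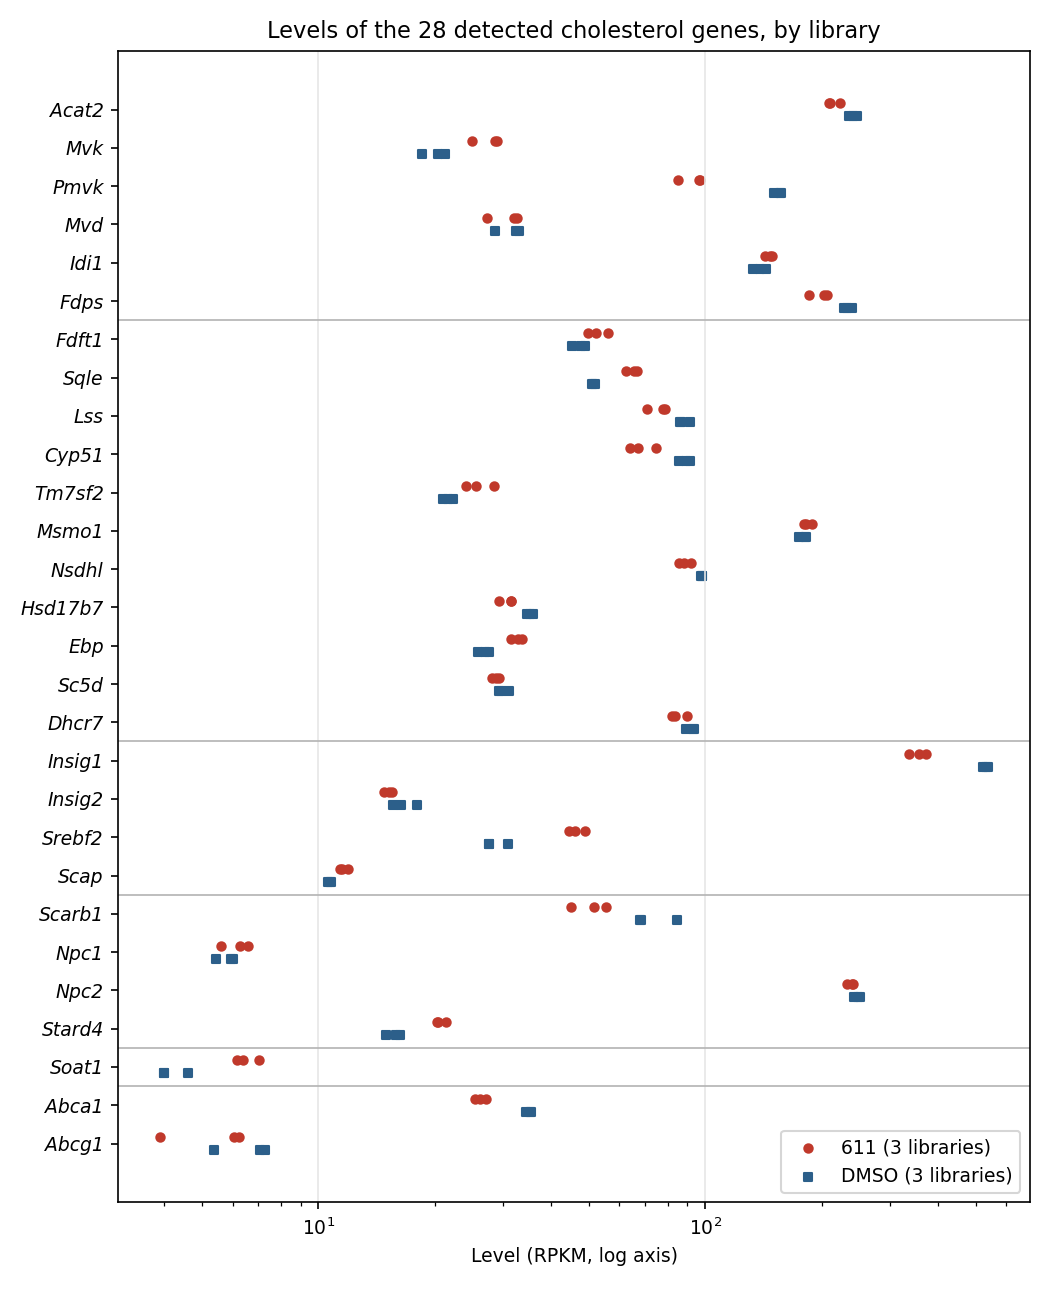
Level of each of the 28 detected cholesterol genes in RPKM on a log axis, with the 3 libraries of 611 (red circles) above the 3 of DMSO (blue squares) in each row, and rows grouped by role. Mean levels span 5.40 RPKM for Abcg1 to 356 RPKM for Insig1 with 611, against 4.18 RPKM for Soat1 to 532 RPKM for Insig1 with DMSO, and the 2 groups of most genes lie close to each other on this scale.

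Levels differed far more between the genes than between the groups. RPKM is per length, so the genes can be ranked. Mean levels ran from 5.40 RPKM for Abcg1 to 356 RPKM for Insig1 with 611, and from 4.18 RPKM for Soat1 to 532 RPKM for Insig1 with DMSO. Replicate libraries agreed closely, with a median coefficient of variation of 4.76% with 611 and 3.10% with DMSO. Abcg1 varied most, by 24.3% with 611 and 15.7% with DMSO.

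Uptake and transport inside the cell held 1 gene that rose, 1 that fell and 2 that were not called. These were 25% higher and 25% lower, against 41.6% and 17.7% of all genes. Scarb1, the scavenger receptor that takes cholesterol esters from HDL, had 51.5, 55.3 and 44.9 RPKM with 611 and 68.3, 84.7 and 68.0 RPKM with DMSO. Replicate 2 was the highest in both groups, and no 611 library reached the DMSO libraries. The means were 50.6 ± 5.28 RPKM with 611 and 73.6 ± 9.57 RPKM with DMSO, 1.46-fold lower (log2 fold change -0.53, SE 0.097, limma BH-adjusted p = 0.00147). Stard4, a soluble carrier that moves sterol between membranes and is itself a SREBP2 target, had 20.3, 21.4 and 20.4 RPKM with 611 and 15.0, 15.9 and 16.3 RPKM with DMSO. It rose 1.31-fold, its means being 20.7 ± 0.632 RPKM with 611 and 15.7 ± 0.641 RPKM with DMSO, and the groups lay well apart (log2 fold change 0.37, SE 0.045, limma BH-adjusted p = 0.000122).

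Npc1 and Npc2 together pass cholesterol out of lysosomes, Npc2 as the soluble carrier and Npc1 in the membrane. Npc1 had 6.28, 5.59 and 6.59 RPKM with 611 and 6.01, 5.45 and 5.94 RPKM with DMSO. Its groups overlapped, with replicate 2 the lowest of each (log2 fold change 0.07, SE 0.068, limma BH-adjusted p = 0.395), and the sign turned after scaling (log2 fold change -0.06). With the replicate block and trends removed Npc1 was called lower (log2 fold change -0.17, limma BH-adjusted p = 0.0159). Npc2 was expressed far more highly, at 239.9, 241 and 232 RPKM with 611 and 251, 248 and 242 RPKM with DMSO. The 611 libraries lay narrowly below the DMSO libraries without a call (log2 fold change -0.06, SE 0.037, limma BH-adjusted p = 0.225), and scaling brought one (log2 fold change -0.21, limma BH-adjusted p = 0.00238). Npc1 shares 511 exonic bases with Rmc1 and 90 with Gm15956, both on the opposite strand.

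Storage and efflux differed in direction. Soat1, the enzyme that esterifies cholesterol for storage, had 6.15, 7.04 and 6.37 RPKM with 611 and 3.98, 4.59 and 3.99 RPKM with DMSO. Replicate 2 was again the highest in each group, and the groups did not overlap. Its means, 6.52 ± 0.460 RPKM with 611 and 4.18 ± 0.349 RPKM with DMSO, gave a 1.56-fold rise (log2 fold change 0.54, SE 0.07, limma BH-adjusted p = 0.000201). Abca1, the pump that loads cholesterol onto lipid-poor apolipoprotein, had 26.2, 27.1 and 25.4 RPKM with 611 and 35.3, 35.5 and 34.4 RPKM with DMSO. Both groups were tight and clearly separate. Abca1 fell 1.34-fold, to 26.2 ± 0.836 RPKM with 611, against 35.0 ± 0.589 RPKM with DMSO (log2 fold change -0.41, SE 0.038, limma BH-adjusted p = 2.9e-05).

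Abcg1, the pump that exports cholesterol to HDL, had 6.24, 3.89 and 6.06 RPKM with 611 and 7.07, 5.39 and 7.28 RPKM with DMSO. Replicate 2 was the lowest of both groups, and the groups overlapped. Within each number the 611 library was lower: 611 minus DMSO was -0.829, -1.51 and -1.22 RPKM for replicates 1, 2 and 3. With all 6 libraries as deposited and no block, Abcg1 was not called (log2 fold change -0.26, SE 0.16, limma BH-adjusted p = 0.187). Quantile normalization without the block brought a lower call (log2 fold change -0.47, limma BH-adjusted p = 0.0378). With the replicate block it was called lower (limma BH-adjusted p = 0.00704), as it was without replicate 2 of both groups (log2 fold change -0.19, limma BH-adjusted p = 0.0412). The efflux pair summed to 32.4, 31.0 and 31.5 RPKM with 611 and 42.3, 40.9 and 41.6 RPKM with DMSO, a ratio of 0.760.

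A further 64 genes around the route, in 7 lists, also moved in both directions. Of the 60 tested, 22 rose and 24 fell, 36.7% and 40% of those tested against 41.6% and 17.7% of all genes, and their median log2 fold change was -0.02. The counts of the single lists, each of 12 genes or fewer, are descriptions to be read against the same shares of all genes. After scaling 16 of the 60 were higher and 31 lower, against 28.5% higher and 28.6% lower over all genes.

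The isoprenoid branches leave the route at farnesyl diphosphate to make dolichol, ubiquinone and protein prenyl groups. Of 12 genes, 1 rose and 6 fell, 8.33% and 50%, against 41.6% and 17.7% of all genes. After scaling none was higher and 9 were lower, against 28.5% and 28.6% of all genes. Dolk, dolichol kinase, fell 1.41-fold, to 59.9 ± 4.23 RPKM with 611 against 84.2 ± 3.23 RPKM with DMSO (log2 fold change -0.49, limma BH-adjusted p = 7.68e-05). Nus1, a subunit of the enzyme that builds the dolichol chain, fell to 40.9 ± 2.00 RPKM with 611 against 50.0 ± 1.44 RPKM with DMSO (log2 fold change -0.28). Trit1, which adds an isopentenyl group to transfer RNA, fell to 7.06 ± 0.0896 RPKM with 611 against 8.79 ± 0.638 RPKM with DMSO (log2 fold change -0.28). Pggt1b, a geranylgeranyl transferase subunit, had 10.4 ± 0.206 RPKM with 611 and 8.81 ± 0.596 RPKM with DMSO, a rise (log2 fold change 0.22) whose call was lost after scaling (0.08).

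Of 6 accessory proteins of the sterol ring steps, 3 rose and 3 fell, 50% each, against 41.6% and 17.7% of all genes. Lbr, the lamin receptor that doubles as a sterol reductase in the same step as Tm7sf2, rose 1.68-fold. It stood at 11.0 ± 0.141 RPKM with 611 and 6.56 ± 0.271 RPKM with DMSO (log2 fold change 0.67, limma BH-adjusted p = 6.14e-06), and scaling left it higher (0.53). Cyb5r3, a reductase of the electron transport chain that serves several of these enzymes, rose 1.21-fold. Por, the reductase that feeds electrons to Cyp51 and to Sqle, fell 1.42-fold, to 41.4 ± 4.26 RPKM with 611 against 58.8 ± 4.22 RPKM with DMSO (log2 fold change -0.50, limma BH-adjusted p = 0.00056). Tmem97, a membrane protein of the endoplasmic reticulum, fell 1.18-fold. Ebpl, a homologue of Ebp, rose 1.13-fold, a call lost without 611 replicate 3 (limma BH-adjusted p = 0.0577), without DMSO replicate 3 (limma BH-adjusted p = 0.0684) and after scaling.

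The proteases and ligases around SREBP held 3 genes that rose and 3 that fell of 8. These were 37.5% each, against 41.6% and 17.7% of all genes. Mbtps1, the first protease that releases SREBP in the Golgi, rose 1.21-fold, to 35.6 ± 1.01 RPKM with 611 against 29.4 ± 1.21 RPKM with DMSO (log2 fold change 0.27, limma BH-adjusted p = 0.000629). Mbtps2, the next protease, had 4.81 ± 0.0962 RPKM with 611 and 4.07 ± 0.0694 RPKM with DMSO, a rise (log2 fold change 0.20) whose call was lost after scaling (0.07). Rnf145, a ubiquitin ligase of the endoplasmic reticulum, rose 1.32-fold. Srebf1, the paralogue that mainly drives fatty acid synthesis, went the other way from Srebf2: it had 47.1, 47.9 and 40.7 RPKM with 611 and 59.7, 61.1 and 56.6 RPKM with DMSO. No 611 library reached the DMSO range, and Srebf1 fell 1.31-fold (log2 fold change -0.38, SE 0.062, limma BH-adjusted p = 0.000765). Syvn1, a ligase of protein quality control, fell 1.23-fold.

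Among 10 genes of the LXR receptors and of efflux on the lipoprotein side, 5 rose and 2 fell, 50% and 20%, near the 41.6% and 17.7% of all genes. Nr1h3, the LXR alpha receptor gene, had 25.5, 25.6 and 25.3 RPKM with 611 and 46.6, 47.5 and 44.3 RPKM with DMSO. It fell 1.81-fold with both groups tight (log2 fold change -0.83, SE 0.038, limma BH-adjusted p = 7.83e-07). Nr1h2, the LXR beta gene, had 22.8 ± 0.856 RPKM with 611 and 23.4 ± 1.94 RPKM with DMSO and was not called (log2 fold change -0.04, limma BH-adjusted p = 0.625); scaling brought a lower call (-0.18). Known LXR targets differed in direction beside Abca1. Pltp, the phospholipid transfer protein, rose 1.93-fold, to 36.9 ± 1.07 RPKM with 611 against 19.1 ± 0.245 RPKM with DMSO (log2 fold change 0.91, limma BH-adjusted p = 5.24e-07). Lpcat3, which remodels membrane phospholipids, fell 1.27-fold, to 113 ± 6.26 RPKM with 611 against 143 ± 2.56 RPKM with DMSO. Arl4c, a small GTPase, rose 3.32-fold at low level, with 1.08, 1.03 and 1.23 RPKM in the 611 libraries against 0.279, 0.336 and 0.392 RPKM in the DMSO libraries. Abca2, an endosomal ABC transporter, rose 2.02-fold.

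Apoe, the lipoprotein that receives effluxed cholesterol, had 14.5, 24 and 17.9 RPKM with 611 and 12.8, 17.2 and 12.2 RPKM with DMSO. Replicate 2 was the highest of both groups, and the groups overlapped (log2 fold change 0.38, limma BH-adjusted p = 0.0859). With the replicate block Apoe was called higher (limma BH-adjusted p = 0.00227), as it was without 611 replicate 1 (log2 fold change 0.55, limma BH-adjusted p = 0.0215), without DMSO replicate 2 (log2 fold change 0.53, limma BH-adjusted p = 0.0256) and without replicate 2 of both groups (log2 fold change 0.35, limma BH-adjusted p = 0.0215).

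**Figure D4:**
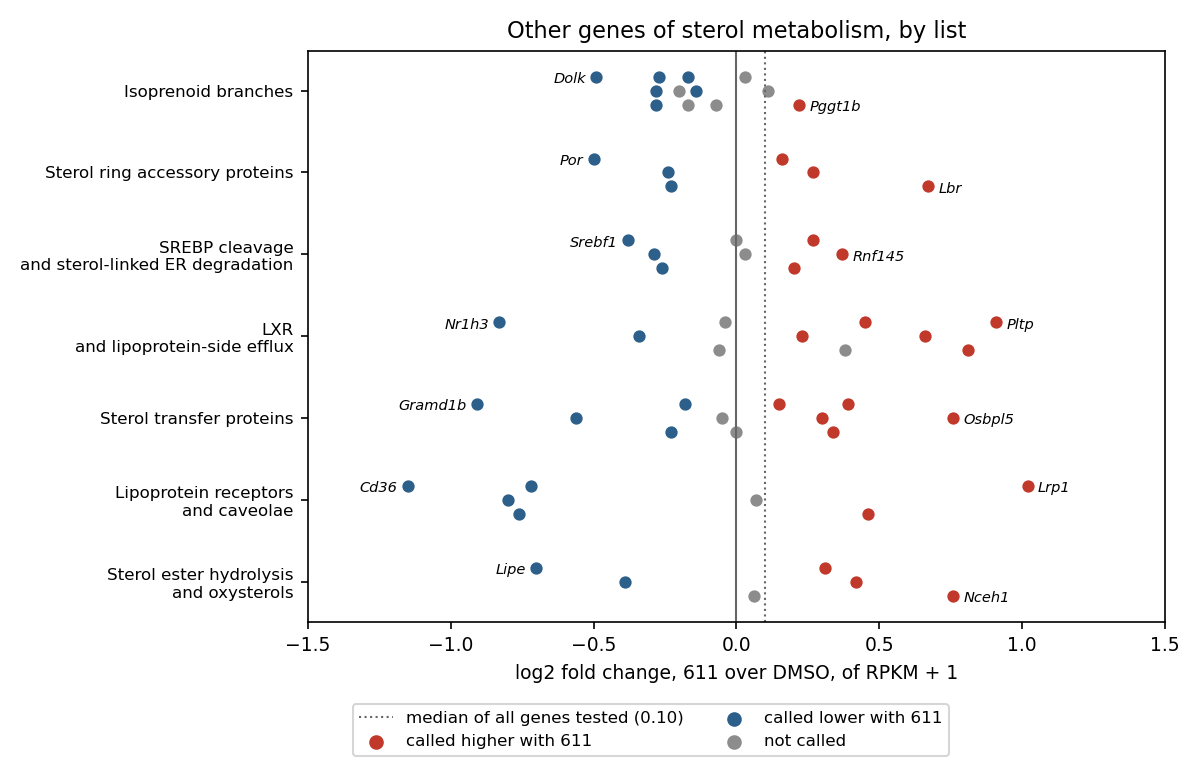
Log2 fold change, 611 over DMSO, on the log2(RPKM + 1) scale, of the 60 tested genes of 7 lists around the cholesterol route, 1 row per list; red is called higher with 611, blue lower and grey neither, and the dotted line is the median of all genes (0.10). The extremes of the lists are Lrp1 at 1.02 and Cd36 at -1.15.

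Sterol transfer proteins held 5 genes that rose and 4 that fell of 11, 45.5% and 36.4%, against 41.6% and 17.7% of all genes. Gramd1b, an Aster protein that carries cholesterol from the plasma membrane to the endoplasmic reticulum, fell 1.92-fold, to 20.9 ± 0.757 RPKM with 611 against 40 ± 0.408 RPKM with DMSO (log2 fold change -0.91, limma BH-adjusted p = 5.95e-07). Its paralogue Gramd1c rose 1.73-fold at low level, to 1.30 ± 0.246 RPKM with 611 against 0.752 ± 0.0646 RPKM with DMSO, a call lost with quantile normalization (limma BH-adjusted p = 0.0584). Scp2, a peroxisomal sterol carrier, fell 1.47-fold, to 277 ± 10.9 RPKM with 611 against 407 ± 8.38 RPKM with DMSO (log2 fold change -0.56). Among the oxysterol-binding family, Osbpl5 rose 1.87-fold, Osbpl1a 1.29-fold, and Osbpl9 fell 1.19-fold.

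Among 7 receptors and caveolar proteins, 2 rose and 4 fell, 28.6% and 57.1%, against 41.6% and 17.7% of all genes. Lrp1, a large receptor for remnant lipoproteins, rose 2.07-fold, to 59.6 ± 2.50 RPKM with 611 against 28.8 ± 1.95 RPKM with DMSO (log2 fold change 1.02, limma BH-adjusted p = 1.39e-06). Cd36, a fatty acid and lipoprotein scavenger receptor that is also among the fat cell markers, fell 2.22-fold, to 151 ± 20.6 RPKM with 611 against 335 ± 32.0 RPKM with DMSO. Vldlr, the very low density lipoprotein receptor, fell 1.89-fold, to 5.26 ± 0.270 RPKM with 611 against 9.95 ± 0.776 RPKM with DMSO. Cav1, the main coat protein of caveolae, fell 1.72-fold, to 20.5 ± 2.00 RPKM with 611 against 35.4 ± 1.00 RPKM with DMSO.

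Of 9 genes of ester hydrolysis and oxysterols, 6 were tested. Of these, 3 rose and 2 fell, 50% and 33.3%, against 41.6% and 17.7% of all genes. Nceh1, a neutral ester hydrolase, rose 4.01-fold at low level, to 1.21 ± 0.0402 RPKM with 611 against 0.301 ± 0.0545 RPKM with DMSO (log2 fold change 0.76, limma BH-adjusted p = 8.6e-06). Lipe, hormone-sensitive lipase, which also cleaves cholesterol esters and is among the fat cell markers, fell 1.63-fold, to 240.2 ± 20.8 RPKM with 611 against 391 ± 15.5 RPKM with DMSO. Lipa, the lysosomal acid lipase that precedes Npc2 and Npc1, fell 1.32-fold, to 54.1 ± 1.95 RPKM with 611 against 71.4 ± 1.33 RPKM with DMSO. Cyp39a1, an oxysterol hydroxylase, rose 1.52-fold to 2.72 ± 0.0641 RPKM with 611 against 1.80 ± 0.231 RPKM with DMSO, and Cyp46a1, the cholesterol hydroxylase known from neurons, rose 1.59-fold to 1.04 ± 0.0598 RPKM with 611 against 0.653 ± 0.156 RPKM with DMSO. The call of Cyp46a1 was lost with quantile normalization (limma BH-adjusted p = 0.166), and both calls were lost with the block and trends removed (limma BH-adjusted p = 0.0713 for Cyp39a1 and 0.129 for Cyp46a1).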

How the data were processed

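Messenger RNA of 6 C3H-10T1/2 cultures, 3 with 611 and 3 with DMSO, was extracted with TRIzol and made into stranded libraries, per the labels' protocols. The submitters' processing notes name TopHat2 2.0.12, TopHat, SAMtools and the mouse build mm9. The authors deposited 1 RPKM value per RefSeq transcript and library. The program behind the RPKM values, its annotation and its use of strand are not in the sources used here, so overlapping genes on either strand cannot be told apart. The 6 tables, 28430 transcripts each, were used as deposited.

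Accessions were matched to symbols through a RefSeq table of GRCm38.p6: 27789 accessions matched and 641 did not. The transcript with the highest mean RPKM stood for its gene, which left 22942 genes. Exonic overlaps come from the GENCODE annotation of the same assembly. Genes with at least 0.1 RPKM in at least 3 libraries (13829) were fitted with limma 3.58.1 (R 4.3.3, trend) on log2(RPKM + 1), with group as the only term. Benjamini-Hochberg adjustment ran over all of them, and calls need an adjusted p below 0.05. Fold changes on this scale understate changes of low genes; folds printed as such are ratios of mean RPKM. The script was tested on simulated data. The labels call the libraries biological triplicates, and p-values measure the spread between these cultures.

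Same-numbered libraries deviated together from their group means: correlations across 10779 genes were 0.296, 0.401 and 0.288. The numbers come from the sample titles and were taken to pair the samples in the pair counts and the block fits. The main fit left this pairing out. It called 8 members higher and 10 lower, against 10 and 13 with the block. Replicates differed by more than sampling noise (chi-square per gene 8.57 to 13.8 within groups, 148 to 218 between them) and were kept apart. Totals and reads are approximate: at the reference's lengths, 41.5% to 42.3% of transcripts under 100 reads came out whole within 0.02 reads, so no count test was run, and whether reads or read pairs were counted is not known. Detection limits correspond to 3 reads and allow for counting error alone.

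The members, roles and lists were chosen with earlier results of these data known. Every member is named, with up to 3 called genes per direction from each other list (mean in the higher group at least 1 RPKM), plus Srebf1, Nr1h2, Nr1h3 and Apoe; Faxdc2 and the marker Cd68 found no symbol match. Some genes that this rule names are not reported here. A total of 17 alternatives were run: another pseudocount (0.1), no filter, a filter of 1 RPKM, median-of-ratios scaling, quantile normalization, the replicate block alone, with that scaling and with length, GC and expression trends removed, summed transcripts, limma without trend, leaving out each library, and leaving out replicate 2 of both groups.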

Additional observations from a re-analysis of the deposited data

How the results depend on the processing

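The 18 called members kept their direction under the 17 alternatives except Fdft1, which was at -0.00 after scaling with and without the block. Leaving out replicate 2 of both groups was chosen after seeing the data, because that replicate stood apart for Abcg1, Scarb1 and Apoe; it gave 7 members higher and 10 lower, and the calls of Nsdhl, Ebpl, Mbtps2 and Fdft1 were among those lost, with limma BH-adjusted p of 0.0515, 0.0585, 0.058 and 0.0601. Fdft1 also lost its call with no filter, with quantile normalization and without the trend. Leaving out single libraries gave 7 to 8 members higher and 10 to 12 lower. The number of members lower was 15 after scaling, 17 with the replicate block and scaling, and 16 with the block and trends removed, against 10; the block alone gave 10 higher and 13 lower, with Idi1, Scap, Abcg1, Dhcr7 and Insig2 as its added calls, all given above. Other pathway genes higher were 14 with quantile normalization, against 22. Over all genes, quantile normalization gave 3652 higher and 4282 lower, scaling 3962 lower, block with scaling 4327 lower and block with trends removed 4606 lower. Scaling moved the ratios of summed RPKM to 0.78 for the condensation steps, 0.875 for the ring steps, 0.656 for SREBP control, 0.829 for uptake and transport (0.857 with summed transcripts) and 0.684 for efflux.

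Signs turned for genes near 0. After scaling, with and without the block, Idi1 was at -0.07, Msmo1 at -0.12, Scap at -0.03 and Npc1 at -0.06. Quantile normalization put Scap at -0.04, Npc1 at -0.13, Npc2 at 0.06 and Mbtps2 at -0.04. Block with trends removed put Scap at -0.07, Npc1 at -0.17, a lower call, Npc2 at 0.00, Ebpl at -0.03 and Mbtps2 at -0.05. With single libraries left out, Mvd ranged from -0.09 to 0.05 (without 611 replicate 3; 0.00 without DMSO replicate 1), and Nr1h2 from -0.10 to 0.02 (without DMSO replicate 2). Where no construction shows it, the cause was not tested. Of 476 comparisons of members with alternatives, 411 kept direction and side of the threshold.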
